A study of Citrullus lanatus with 30 samples.

Results

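Homeobox genes encode transcription factors that bind DNA through a homeodomain, and they were followed here in the fruit flesh of watermelon (Citrullus lanatus). They were chosen by description: 111 of the 22596 genes in the deposited table had a description holding homeobox, homeodomain, HD-ZIP, WUSCHEL, BEL1 or KNOTTED. Of these, 74 reached at least 1 TPM (transcript abundance corrected for gene length and scaled to a fixed total per library) in at least 3 of 30 libraries and were tested, among 16503 genes tested in all. The study compared wild type (WT) fruits with fruits of a mutant line named clnor, harvested at 10, 18, 26, 34 and 42 days after pollination (DAP). Each of the 10 groups of genotype and age had 3 libraries, made from total RNA of flesh. The labels give no cultivar, no allele and no way in which clnor was made, and do not say whether the libraries of a group came from separate fruits or plants, so p-values measure the spread between these libraries, which may be technical. The gene mutated in clnor is not named in any description, so its level was not used here to check the labels.

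HD-ZIP proteins, a class found only in plants, carry a leucine zipper beside the homeodomain, bind DNA as dimers and adjust growth to light, water supply and hormones, and an HD-ZIP protein of tomato binds the promoter of an ethylene synthesis gene in ripening fruit. KNOTTED-like (KNOX) proteins pair with BEL1-like proteins, keep meristem cells undifferentiated and lower gibberellin synthesis, and members of both families influence chloroplast development in tomato fruit. WUSCHEL-related (WOX) proteins maintain stem cells in shoot, root and cambium and act in organ and embryo patterning, and zinc finger homeodomain proteins use a pair of zinc fingers to dimerise.

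By description the 111 genes comprised 44 HD-ZIP, 11 KNOTTED, 11 BEL1, 12 WUSCHEL and 14 zinc finger homeodomain genes, with 19 other homeobox genes. The numbers tested were 29, 8, 9, 5, 7 and 16 in the same order. The descriptions do not divide the HD-ZIP genes into subclasses. The 37 genes left out never exceeded 3.02 TPM, and 8 of them were listed at 0 in all 30 libraries. At the edge of the filter, Cla97C06G109300 (HD-ZIP) reached 1 TPM in exactly 3 libraries, while 4 genes left out did so in 2. Of the 74 genes, 47 had at least 1 TPM in all 30 libraries. In 4 genes, Cla97C02G046470, Cla97C06G109300, Cla97C06G123810 and Cla97C09G164060, only WT libraries reached 1 TPM, so these passed the filter through WT and counts over the 74 genes describe the genes tested, not the whole family.

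The table keeps no sequencing depth, so depth and the precision of low values are unknown. The 30 libraries had TPM sums of 970727 to 985840. Each library was correlated (Pearson, on log2(TPM + 1) over tested genes) with the mean of each group, itself left out. By this measure 5 libraries lay nearer to another group than to their own: WT 18 DAP replicate 3 (nearest to clnor 18 DAP), clnor 18 DAP replicate 3 (nearest to WT 18 DAP), clnor 10 DAP replicate 1 (nearest to WT 10 DAP), clnor 10 DAP replicate 3 (nearest to clnor 18 DAP) and clnor 34 DAP replicate 2 (nearest to clnor 42 DAP). Comparisons at 18 DAP, and those with clnor 10 DAP, rest most on these libraries. The counts at 18 DAP are given with and without them. Leaving out all 5 keeps only replicate 2 of clnor 10 DAP, so contrasts with that group are given no count or p-value without them.

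Late WT flesh held less homeobox transcript than late clnor flesh. The summed level of the 74 genes, as mean ± SD of 3 libraries, was 2103 ± 121 TPM in WT and 3567 ± 253 TPM in clnor at 34 DAP, and 2175 ± 140 and 2984 ± 372 TPM at 42 DAP. The HD-ZIP class accounted for most of that gap, with 1701 ± 187 TPM in WT and 2100 ± 422 TPM in clnor at 10 DAP, and 814 ± 74.3 TPM in WT and 2013 ± 218 TPM in clnor at 34 DAP. The WUSCHEL sum at 34 DAP was 166 ± 20.2 TPM in WT and 401 ± 86.1 TPM in clnor, but it was mostly that of 1 gene, the WOX13 gene Cla97C10G184840, with means of 145 and 385 TPM. The KNOTTED sum at 42 DAP was 267 ± 14.1 TPM in WT and 172 ± 6.51 TPM in clnor. No test was made of these sums. The 5 genes with the highest mean held 34.8 to 58.8% of the summed level in a library: the HD-ZIP genes Cla97C01G017140, Cla97C05G080560 and Cla97C10G191910, Cla97C10G184840 and the BEL1-like Cla97C10G201280. At the other end, 26 genes averaged below 5 TPM. These are bulk samples, in which fewer cells of a type and less RNA per cell cannot be told apart.

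**Figure D1:**
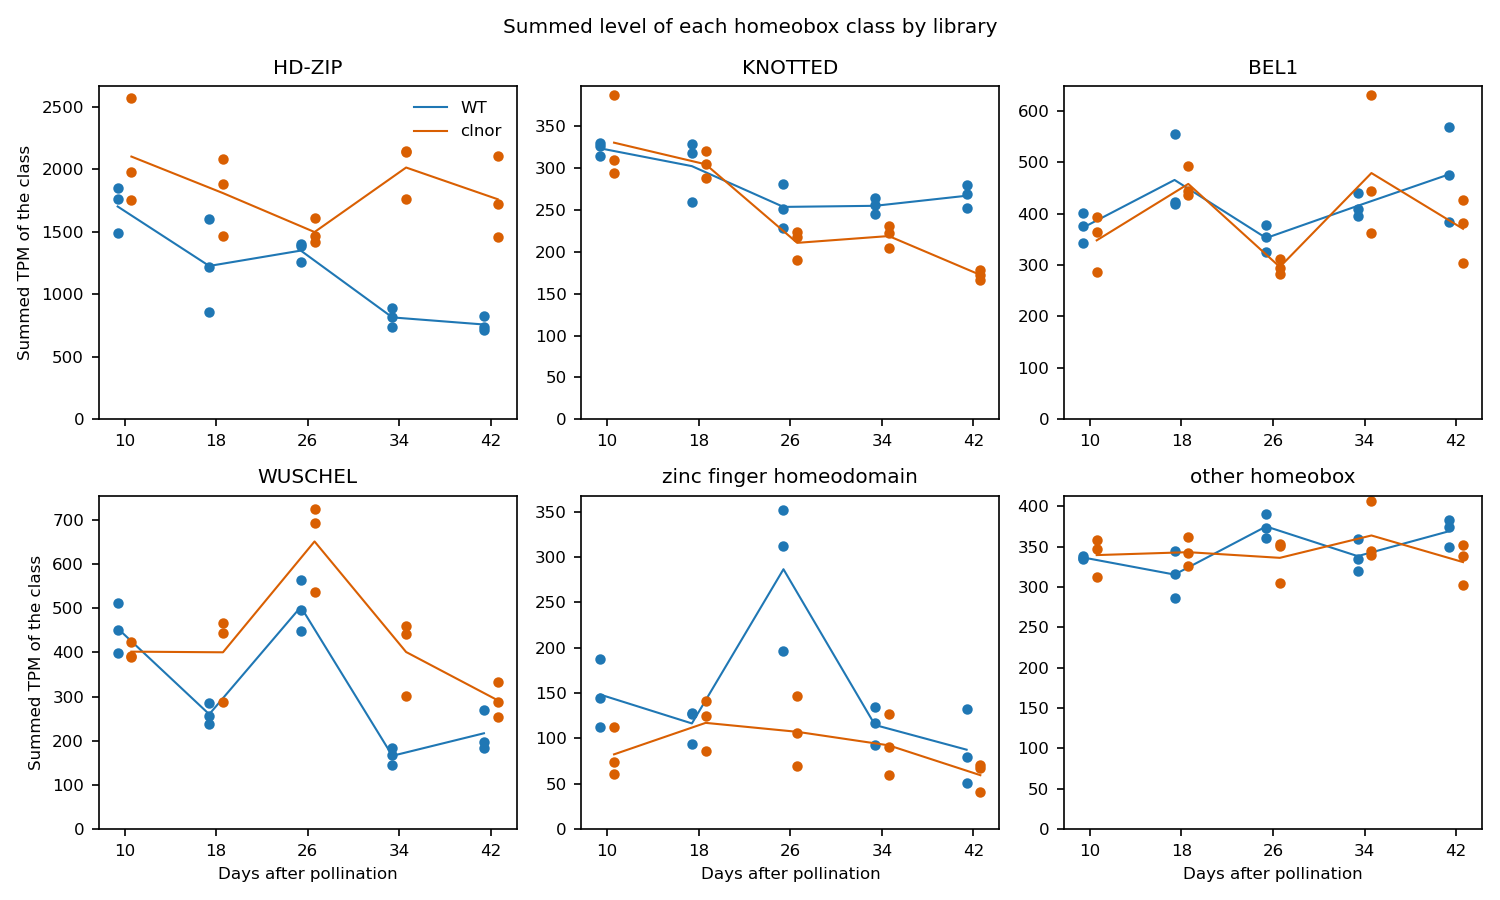
Summed TPM of each homeobox class (y axis) in every library (points) by days after pollination (x axis), for WT (blue) and clnor (orange), with lines through the means of 3 libraries. The HD-ZIP sums of the 3 clnor libraries at 34 DAP lie between 1761 and 2141 TPM, above the 3 WT libraries at 737 to 886 TPM.

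The comparison of clnor with WT at each age asks when the genotypes part. Values were tested as log2(TPM + 1) with limma across all 16503 genes, and a gene was called at a Benjamini-Hochberg adjusted p below 0.05. A log2 difference on this scale understates the change of a gene at low level. At 10 DAP 1 of 74 homeobox genes was called, higher in clnor, against 0.473% of all genes tested (0.248% higher and 0.224% lower), and 9 had an unadjusted p below 0.05. At 18 DAP 2 were called, both higher in clnor, against 2.35% of all genes (1.38% higher and 0.97% lower), and 20 had an unadjusted p below 0.05. Shares of all genes at an unadjusted p below 0.05 were not counted, so the 9 and 20 cannot be set beside them. At 26 DAP 15 were called, 8 higher and 7 lower in clnor, against 15.5% of all genes (9.66% higher and 5.8% lower). At 34 DAP 36 were called, 27 higher and 9 lower, against 39.4% of all genes (27.4% higher and 12.1% lower), and at 42 DAP 29 were called, 20 higher and 9 lower, against 32.6% of all genes (18.8% higher and 13.8% lower).

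As shares of the 74 genes these counts were 1.35, 2.7, 20.3, 48.6 and 39.2% from 10 to 42 DAP. The shares stood above those of all genes at every age, by less than 10 percentage points, and these gaps were not tested. At 10 and 18 DAP they rest on 1 and 2 genes. The homeobox share at 10 DAP was 0, below that of all genes, without replicate 2 or 3 of either genotype. At 18 DAP it was 0, also below, without replicate 2 of WT or replicate 1 or 2 of clnor. Higher calls took 36.5% of the homeobox genes at 34 DAP, beside 27.4% of all genes, and lower calls took 12.2%, beside 12.1% of all genes. The median log2 difference of the 74 genes at 34 DAP was 0.32, and that of all genes was 0.20. Quantile normalization moved the median of all genes at 34 DAP from 0.20 to -0.01 and left 22 homeobox genes higher and 9 lower, or 29.7 and 12.2%, beside 17.1 and 17.8% of all genes in the same fit. At 42 DAP it left 17 higher and 13 lower, or 23 and 17.6%, beside 15.1 and 17.6% of all genes. No called homeobox gene turned its sign in any of the 5 ages under rescaling to a common sum, upper-quartile scaling or quantile normalization.

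The count at 18 DAP rested on single libraries. At that age it was 0 when replicate 2 of WT, replicate 1 of clnor or replicate 2 of clnor was left out. Leaving out replicate 3 of WT gave 12, or 16.2% of the 74 genes, and the share of all genes then rose from 2.35 to 10.1%. Leaving out replicate 3 of clnor gave 16, or 21.6%, beside 13.3% of all genes. Without all 5 libraries that lay nearer to another group it was 25, or 33.8%, beside 25.5% of all genes. Of these, 20 were higher and 5 lower in clnor, or 27 and 6.76%, beside 13.9 and 11.5% of all genes. Without those 5 libraries the counts at 26, 34 and 42 DAP were 18, 39 and 33, or 24.3, 52.7 and 44.6%, beside 22.1, 38.4 and 39.6% of all genes. At 26 DAP the count was 9 without clnor 26 DAP replicate 1, or 12.2%, beside 10.2% of all genes.

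**Figure D2:**
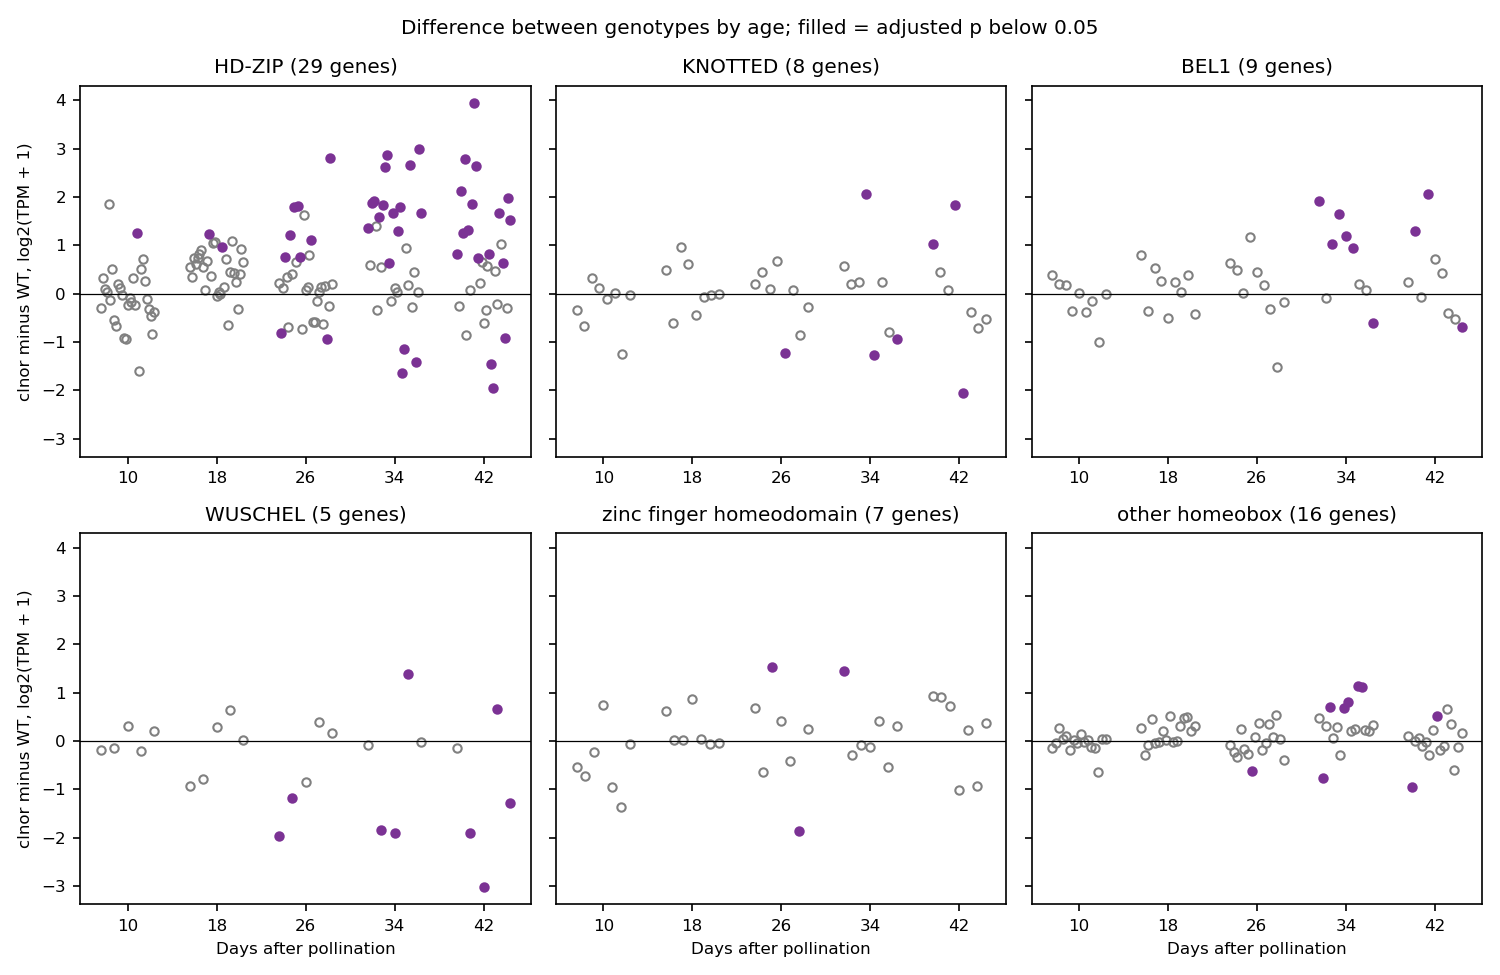
Log2 difference of clnor minus WT in log2(TPM + 1) (y axis) at each age (x axis) for every tested gene of each homeobox class. Filled points passed an adjusted p of 0.05. Filled points are few at 10 and 18 DAP (1 and 2 genes). At 34 DAP 14 HD-ZIP genes are filled above 0 and 3 below, or 48.3 and 10.3%, beside 27.4 and 12.1% of all genes.

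Counted over ages, 28 of the 74 genes were called at no age, 22 at 1 age, 13 at 2 ages, 9 at 3 ages and 2 at 4 ages, and none at all 5. The same count was not made over all genes tested, so it shows nothing particular to homeobox genes. The pair called at 4 ages, Cla97C05G090900 and Cla97C09G161990, are both HD-ZIP genes and were higher in clnor from 18 DAP on. The 27 genes higher at 34 DAP and the 20 higher at 42 DAP shared 16, which is 59.3% of the former and 80% of the latter. Over all genes tested the same overlap was 53.1 and 77.2%. The 9 lower at 34 DAP and the 9 lower at 42 DAP shared 8, or 88.9% of each, beside 66.7 and 58.3% over all genes. Among those 8, Cla97C06G123810 and Cla97C09G164060 passed the filter through WT, which favours lower calls in clnor. The gaps between these shares were not tested, and the 2 ages have no library in common.

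Among the 29 HD-ZIP genes, 14 were higher and 3 lower in clnor at 34 DAP, and the counts at 42 DAP were the same. As shares these were 48.3% higher and 10.3% lower, beside 27.4 and 12.1% of all genes tested at 34 DAP and 18.8 and 13.8% at 42 DAP. The most abundant, Cla97C01G017140, read 433, 260.2 and 348 TPM in the 3 WT libraries at 10 DAP and 140.2, 198 and 146 TPM at 34 DAP, while clnor read 336, 377 and 383 TPM and 517, 747 and 522 TPM. The genotypes overlapped at 10 DAP and were far apart at 34 DAP. At 42 DAP it read 165, 165 and 150.4 TPM in WT and 779.5, 478 and 946 TPM in clnor, a log2 difference of 2.13 (SE 0.25, adjusted p = 1.05e-06). It thus fell with age in WT, by 1.08 on the log2 scale from 10 to 42 DAP (adjusted p = 0.00106), and rose in clnor by 0.95 (adjusted p = 0.00464).

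Cla97C05G080560 had the largest difference of any homeobox gene at 42 DAP. WT read 19.2, 25.8 and 12.3 TPM and clnor 307, 273 and 312 TPM, a log2 difference of 3.95 (SE 0.60, adjusted p = 2.77e-05). Its libraries at 10 DAP were scattered, at 290.1, 132 and 377 TPM in WT and 345, 573 and 113 TPM in clnor, and overlapped. From 10 to 42 DAP it fell in WT, with a log2 change of -3.67 (SE 0.60, adjusted p = 3.03e-05). In clnor the change was 0.07 (SE 0.60, adjusted p = 0.938) and was not called.

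HOX24-like Cla97C05G090900 (its rice namesake is an HD-ZIP gene) fell in WT, by 2.33 on the log2 scale from 10 to 34 DAP, where clnor changed by 0.42 (SE 0.28, adjusted p = 0.302). WT libraries read 8.47, 7.08 and 7.63 TPM at 10 DAP, 2.35, 1.09 and 1.62 TPM at 26 DAP and 0.4, 0.59 and 0.22 TPM at 42 DAP. The clnor libraries read 6.06, 10.2 and 9.56 TPM, 8.01, 9.75 and 7.1 TPM and 7.91, 5.93 and 9.54 TPM at the same ages. From 26 DAP on every clnor library lay above every WT library. The log2 differences were 1.81 at 26 DAP, 2.87 (SE 0.28, adjusted p = 1.2e-07) at 34 DAP and 2.63 at 42 DAP. At 18 DAP the difference was 1.23 (SE 0.28, adjusted p = 0.0271). That earliest call was lost without replicate 2 of WT 18 DAP or replicate 1 or 2 of clnor 18 DAP (adjusted p from 0.159 to 0.272), and in a fit of the compared groups alone (0.57).

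The other gene called at 4 ages, Cla97C09G161990, read 18.7, 17.1 and 14.9 TPM in WT and 45.6, 88.7 and 55.2 TPM in clnor at 34 DAP, without overlap, a log2 difference of 1.79 (SE 0.24, adjusted p = 5.38e-06). At 18 DAP it differed by 0.96 (SE 0.24, adjusted p = 0.0392), a call lost without replicate 2 of WT 18 DAP or replicate 1 or 2 of clnor 18 DAP (adjusted p from 0.177 to 0.315) and in a fit of the compared groups alone (0.57). Its call at 42 DAP, 0.82 (SE 0.24, adjusted p = 0.0121), was lost without replicate 1 of WT 42 DAP (adjusted p = 0.0501).

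Several other HD-ZIP genes were higher in clnor at 34 DAP. Cla97C01G012720 read 47.4, 48.3 and 42.2 TPM in WT at 10 DAP and 14.7, 14.9 and 15.2 TPM at 34 DAP, while clnor read 46.3, 34.7 and 40.2 TPM at 34 DAP. The WT libraries at 34 DAP all lay below the clnor ones, and the difference was 1.37 (SE 0.15, adjusted p = 4.48e-07). Cla97C01G017950 read 47.8, 54.5 and 41.6 TPM in WT and 173, 199.5 and 180.4 TPM in clnor at 34 DAP, also without overlap, a difference of 1.93 (SE 0.22, adjusted p = 5.57e-07). Cla97C10G187080 read 30.6, 43.8 and 33.4 TPM in WT and 179.5, 242 and 286 TPM in clnor at 34 DAP (difference in log2 2.67, SE 0.30, adjusted p = 5.67e-07). Its clnor level was uneven over age, at 75.5, 61.1 and 59.1 TPM at 26 DAP, where it overlapped WT, and 56.2, 72.8 and 126 TPM at 42 DAP. Cla97C02G047220 was higher in clnor at 26, 34 and 42 DAP, by 1.21, 1.59 and 1.31. Cla97C05G093030 was higher at the same 3 ages by 0.77, 0.63 and 0.74. For Cla97C02G047220 and Cla97C05G093030 it was not checked whether the calls hold without single libraries.

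The 2 steepest falls in WT from 10 to 34 DAP were those of HD-ZIP genes. Cla97C11G220290 read 33.4, 69.1 and 34.2 TPM at 10 DAP and 1.1, 1.16 and 0.83 TPM at 34 DAP in WT, a change of -4.44 (SE 0.56, adjusted p = 1.4e-06). In clnor it read 30.4, 17.9 and 30 TPM at 26 DAP and 27.6, 7.92 and 15.7 TPM at 34 DAP, above every WT library of those ages. It was higher in clnor at 26 DAP by 2.80 (SE 0.56, adjusted p = 0.00148), at 42 DAP by 1.97, and at 34 DAP with adjusted p = 0.000206. Cla97C05G106550 fell in WT from 27.6, 30.8 and 13.5 TPM to 0, 0.12 and 0 TPM at 34 DAP, the largest fall of any homeobox gene (change in log2 -4.51, SE 0.56, adjusted p = 1.04e-06). In clnor it still read 4.11, 0.63 and 3.3 TPM at 34 DAP and 0.72, 0.93 and 0.43 TPM at 42 DAP. Its difference at 34 DAP, 1.67 (SE 0.56, adjusted p = 0.0206), was lost without replicate 1 or 3 of WT 34 DAP or replicate 1 or 3 of clnor 34 DAP (adjusted p from 0.052 to 0.0916). In clnor its fall from 10 to 34 DAP was -1.92 (SE 0.56, adjusted p = 0.0147). That call was lost without replicate 3 of clnor 10 DAP or replicate 2 of clnor 34 DAP (adjusted p from 0.0988 to 0.099). It was also lost in a fit of the compared groups alone (adjusted p = 0.135). Without the 5 libraries nearest to another group, which leaves only replicate 2 in clnor 10 DAP, the change in clnor was -0.32.

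A pair of falling HD-ZIP genes showed wide spread at 10 DAP. Cla97C01G018750 read 49.5, 22.5 and 68 TPM in WT and 158, 355 and 67.6 TPM in clnor at 10 DAP, where the difference of 1.86 (SE 0.78, adjusted p = 0.37) was not called. At 42 DAP it read 3.74, 4.23 and 3.51 TPM in WT and 32.9, 18.8 and 53 TPM in clnor (difference in log2 2.78, SE 0.78, adjusted p = 0.00808). Cla97C09G179770 read 6.34, 14.6 and 5.02 TPM in WT at 10 DAP and 0.08, 0.26 and 0.35 TPM at 34 DAP, and it was called between genotypes at no age.

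In WT 3 HD-ZIP genes rose from 10 to 34 DAP, or 10.3% of the class, beside 19.1% of all genes. Cla97C09G166050 read 14.4, 10.2 and 11.9 TPM in WT at 10 DAP, 72.3, 86.4 and 77.5 TPM at 34 DAP and 76.5, 132 and 137 TPM at 42 DAP. In clnor it read 24.7, 36.4 and 30.2 TPM, 29.3, 36.2 and 40.1 TPM and 23.9, 25.1 and 36.6 TPM. The clnor libraries thus lay above WT at 10 DAP and below WT at 34 and 42 DAP, with no overlap at any of these ages. The log2 differences were 1.25 (SE 0.26, adjusted p = 0.0286) at 10 DAP, -1.15 (SE 0.26, adjusted p = 0.00141) at 34 DAP and -1.95 (SE 0.26, adjusted p = 6.03e-06) at 42 DAP. The call at 10 DAP, the only homeobox call at that age, was lost without replicate 2 or 3 of WT 10 DAP or replicate 2 or 3 of clnor 10 DAP (adjusted p from 0.0812 to 0.17) and in a fit of the compared groups alone (0.296). Cla97C10G197160 rose in WT from 20.4, 21.1 and 21.8 TPM at 10 DAP to 65.5, 70.3 and 86.8 TPM at 34 DAP and stood at 32.5, 27 and 22.3 TPM in clnor (difference in log2 -1.42, SE 0.23, adjusted p = 4.82e-05). Cla97C09G164060, one of the genes that passed the filter through WT, read 4.92, 3.14 and 1.73 TPM in WT and 0.3, 0.38 and 0.23 TPM in clnor at 34 DAP (difference in log2 -1.64, SE 0.23, adjusted p = 7.1e-06). These are the 3 HD-ZIP genes lower in clnor at 34 DAP, and the same 3 were lower at 42 DAP.

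**Figure D3:**
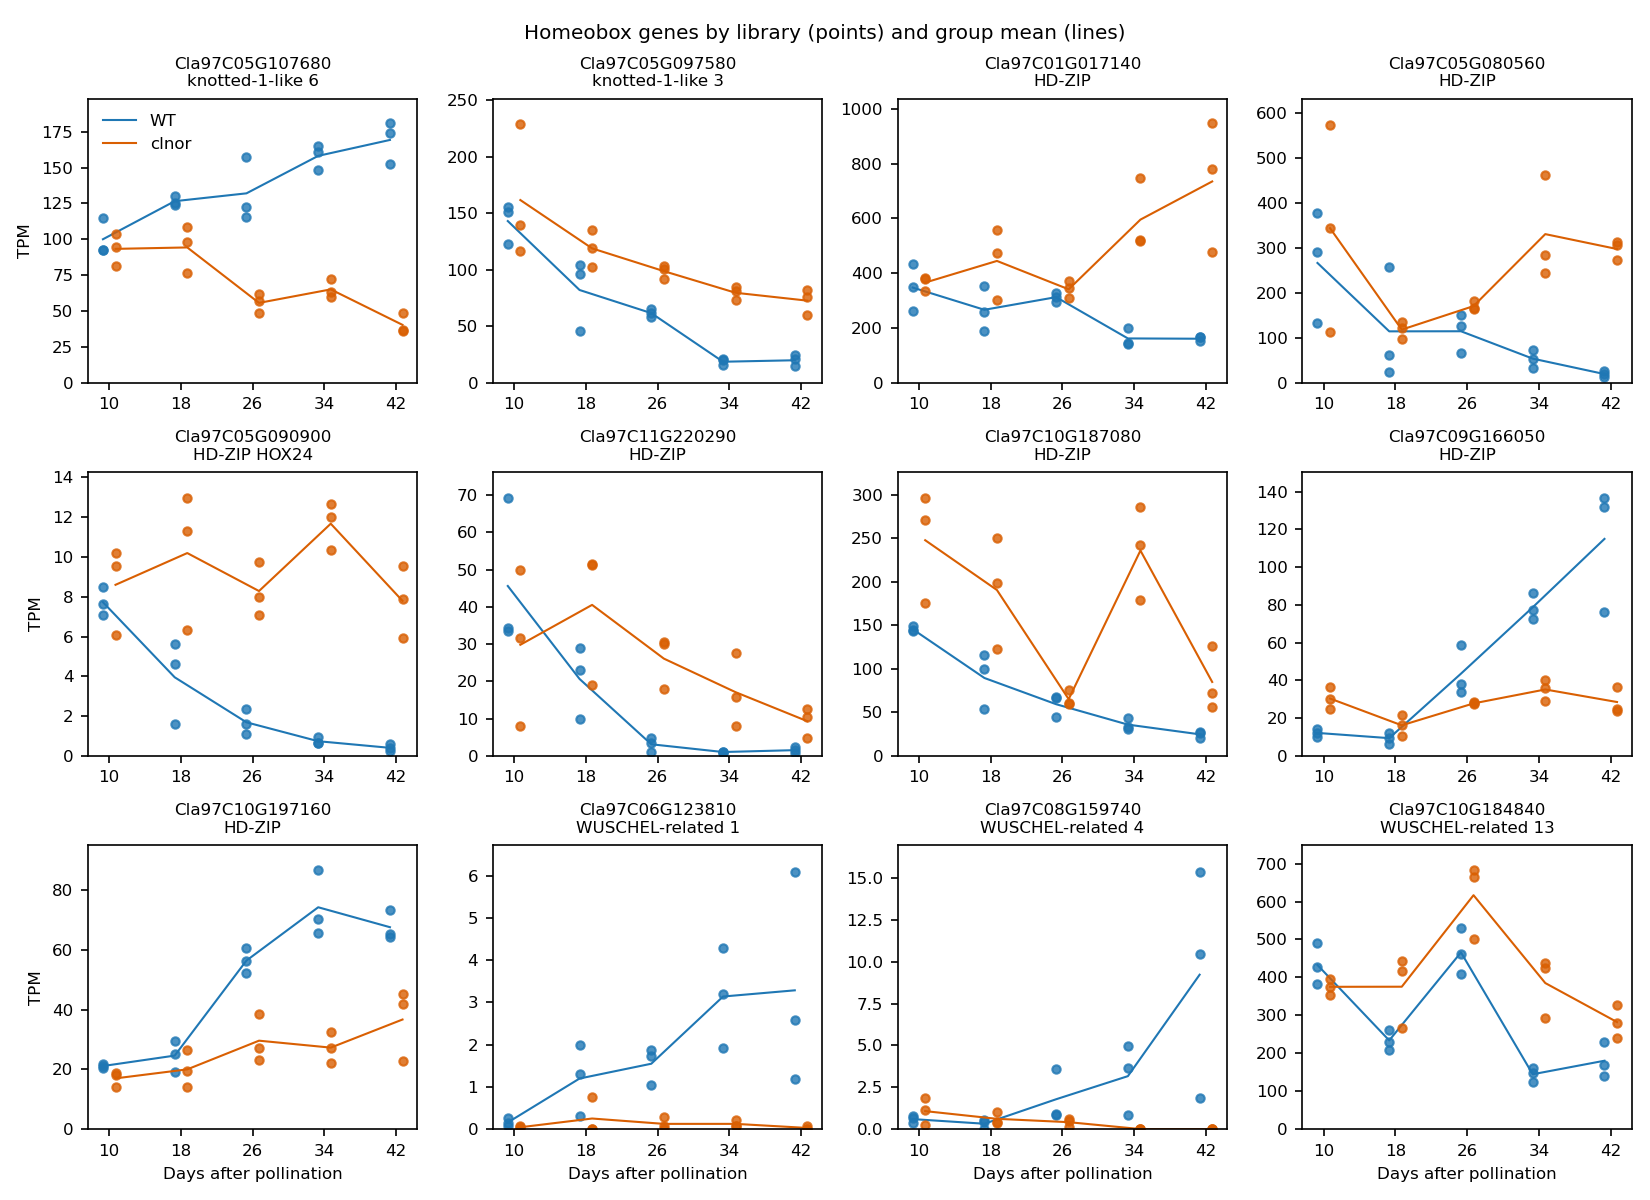
TPM (y axes, starting at 0) of 12 homeobox genes in each of 30 libraries by days after pollination (x axes). Points are libraries, blue for WT and orange for clnor, and lines join the means of 3 libraries. In the first panel WT rises to 152 to 181 TPM at 42 DAP and clnor falls to 35.7 to 48.6 TPM.

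The KNOTTED class held 8 tested genes, of which clnor had 1 higher and 2 lower at 34 DAP and 2 higher and 1 lower at 42 DAP. The 3 calls were 37.5% of the class at either age, beside 39.4% of all genes at 34 DAP and 32.6% at 42 DAP. The smallest p of any homeobox gene at 42 DAP was that of Cla97C05G107680, described as knotted-1-like 6. Its Arabidopsis namesake KNAT6 is a class I KNOX gene that acts in the shoot meristem and at organ boundaries. WT libraries read 92.5, 115 and 92.3 TPM at 10 DAP, 123, 116 and 158 TPM at 26 DAP and 152, 181 and 174 TPM at 42 DAP. The clnor libraries read 104, 81.3 and 94.6 TPM, 56.6, 48.5 and 61.8 TPM and 35.7, 48.6 and 36.6 TPM. The genotypes overlapped at 10 DAP and lay apart from 18 DAP on, with clnor lower. The log2 differences were -1.23 (SE 0.15, adjusted p = 8.38e-06) at 26 DAP, -1.27 (SE 0.15, adjusted p = 8.92e-07) at 34 DAP and -2.05 (SE 0.15, adjusted p = 1.66e-09) at 42 DAP. Within genotypes it rose in WT by 0.76 from 10 to 42 DAP (adjusted p = 0.000221) and fell by 1.20 in clnor (adjusted p = 2.22e-06). The same gene changed in opposite directions at 34 DAP, by 0.66 in WT and -0.51 (SE 0.15, adjusted p = 0.0153) in clnor. That clnor call was lost without replicate 1 of clnor 10 DAP or replicate 2 of clnor 34 DAP (adjusted p from 0.0613 to 0.0705). It was also lost in a fit of the compared groups alone (adjusted p = 0.117). Without the 5 libraries nearest to another group, which leaves only replicate 2 in clnor 10 DAP, the change in clnor was -0.27.

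The knotted-1-like 3 gene Cla97C05G097580 differed in the other direction. KNAT3 of Arabidopsis is a class II KNOX gene, a group expressed in differentiating tissue. WT read 151, 123 and 156 TPM at 10 DAP and 15.2, 19.6 and 20.6 TPM at 34 DAP, and clnor read 139.7, 228 and 117 TPM and 80.8, 72.9 and 84.9 TPM. At 34 and 42 DAP every clnor library lay above every WT library, by 2.06 (SE 0.25, adjusted p = 1.19e-06) and 1.83 (SE 0.25, adjusted p = 5.85e-06). It fell in both genotypes, by 2.89 in WT and 0.96 in clnor from 10 to 34 DAP. The fall in clnor (adjusted p = 0.00665) was lost without replicate 2 of clnor 10 DAP (adjusted p = 0.0596) and in a fit of the compared groups alone (0.0763).

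The second knotted-1-like 3 gene, Cla97C08G156950, stood at 24.4 to 87.7 TPM in all libraries and was called between genotypes at no age, with differences from -0.38 at 42 DAP to 0.25 at 34 DAP. The second knotted-1-like 6 gene, Cla97C08G161580, was low and scattered, at 5.48, 2.68 and 3.3 TPM in WT and 0.12, 5.52 and 1.72 TPM in clnor at 34 DAP, and was called at no single age. Knotted-1-like 7 Cla97C01G003320 (KNAT7 of Arabidopsis regulates secondary wall formation) read 1.18, 0.55 and 0.08 TPM in WT and 3.22, 1.43 and 2.09 TPM in clnor at 42 DAP. That difference, 1.04 (SE 0.37, adjusted p = 0.0321), was lost without replicate 2 or 3 of WT 42 DAP or replicate 1 or 3 of clnor 42 DAP (adjusted p from 0.0671 to 0.166), and after quantile normalization (0.129) or in a fit of the compared groups alone (0.0518).

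Knotted-1-like 1 Cla97C02G040680 and Cla97C02G028600, described as a putative knotted-1, were low genes with their highest WT mean at 10 DAP. Cla97C02G028600 read 5.83, 3.01 and 3.63 TPM in WT at 10 DAP and 0.46, 0.07 and 0.07 TPM at 42 DAP, a change of -2.08 (SE 0.31, adjusted p = 7.99e-06), and neither gene was called between genotypes at any age. Cla97C02G040680 was listed at 0 in all 6 WT libraries of 34 and 42 DAP. The knotted 1-binding protein Cla97C10G196050, included through its description alone, read 24.3, 27.1 and 29.7 TPM in WT and 14.3, 11.8 and 14.9 TPM in clnor at 34 DAP (difference in log2 -0.94, SE 0.22, adjusted p = 0.00175). Its WT libraries all lay above the clnor ones.

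Of 9 BEL1-like genes, the partners of KNOX proteins, clnor had 5 higher and 1 lower at 34 DAP and 2 higher and 1 lower at 42 DAP. The higher calls were 55.6% of the class at 34 DAP and 22.2% at 42 DAP, beside 27.4 and 18.8% of all genes, and the lower calls 11.1% at both, beside 12.1 and 13.8%. The most abundant was BEL1-like 1 Cla97C10G201280. It read 191 to 483 TPM over the 30 libraries, with group means from 204 TPM in clnor at 26 DAP to 345 TPM in WT at 42 DAP. It was called between genotypes at no age, and the largest of the 5 differences was -0.39 (SE 0.21, adjusted p = 0.155) at 42 DAP.

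Members higher in clnor at 34 DAP were mostly low in level. BEL1-like 2 Cla97C01G002520 (its Arabidopsis namesake, SAWTOOTH1, restrains KNOX genes in leaves) read 0.03, 0 and 0.03 TPM in WT and 5.11, 1.08 and 3.59 TPM in clnor, a difference of 1.93 (SE 0.35, adjusted p = 0.000149). At 42 DAP its groups overlapped. BEL1-like 8 Cla97C03G053960 read 0.69, 0.36 and 0.64 TPM in WT and 3.19, 5.74 and 8.57 TPM in clnor at 42 DAP (difference in log2 2.06, SE 0.45, adjusted p = 0.00106), and at 34 DAP the difference was 1.64 (adjusted p = 0.00524), a call lost after quantile normalization (0.0671). The unnumbered BEL1-like gene Cla97C08G160650 read 4.16, 4.1 and 2.76 TPM in WT and 8.77, 12.3 and 8.06 TPM in clnor at 34 DAP (difference in log2 1.19, SE 0.30, adjusted p = 0.00279), a call lost after quantile normalization (0.0735). In all 3 of these genes every clnor library lay above every WT library at 34 DAP.

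Most of the remaining BEL1 calls rested on single libraries. BEL1-like 1 Cla97C02G048510 differed at 34 DAP by 1.03 (SE 0.35, adjusted p = 0.021), lost without replicate 3 of WT 34 DAP or replicate 3 of clnor 34 DAP (adjusted p from 0.0658 to 0.14). BEL1-like 7 Cla97C09G164950 differed at 34 DAP by 0.95 (SE 0.30, adjusted p = 0.0136), lost without replicate 3 of WT 34 DAP or replicate 2 or 3 of clnor 34 DAP (adjusted p from 0.0521 to 0.0597) and after quantile normalization (0.152). BEL1-like 4 Cla97C01G015290 differed at 42 DAP by 1.30 (SE 0.38, adjusted p = 0.0105), lost without replicate 3 of clnor 42 DAP (adjusted p = 0.0676) and after quantile normalization (0.0513). BEL1-like 9 Cla97C10G204780, whose Arabidopsis namesake shapes the stem and inflorescence, was called at no age, with WT libraries at 34 DAP spread over 11.9, 8.36 and 1.35 TPM.

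A second BEL1-like 7 gene, Cla97C11G210830, was the 1 member lower in clnor. It rose in WT from 29.5, 40.8 and 44.4 TPM at 10 DAP to 88, 90.8 and 95.4 TPM at 34 DAP (change in log2 1.26, SE 0.23, adjusted p = 0.000121), with the highest values at 18 DAP, 130.3, 136 and 78.7 TPM. In clnor it read 60.1, 70.8 and 50.5 TPM at 34 DAP, below all WT libraries (difference in log2 -0.60, SE 0.23, adjusted p = 0.0443). That call was lost without replicate 1, 2 or 3 of WT 34 DAP or replicate 1 or 3 of clnor 34 DAP (adjusted p from 0.0751 to 0.161), and with no filter on low values (0.0525). The call at 42 DAP, -0.68 (SE 0.23, adjusted p = 0.0277), was lost without replicate 1, 2 or 3 of WT 42 DAP or replicate 1 of clnor 42 DAP (adjusted p from 0.0545 to 0.102).

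Of the 5 tested WUSCHEL-related genes, 1 was higher and 2 lower in clnor at 34 DAP, or 20 and 40%, beside 27.4 and 12.1% of all genes. At 42 DAP 1 was higher and 3 lower, or 20 and 60%, beside 18.8 and 13.8% of all genes. Cla97C06G123810, lower at both ages, and Cla97C02G046470 passed the filter through WT, so the filter favoured lower calls in this class. Left-out WUSCHEL genes Cla97C04G077500 and Cla97C11G213280 each reached 1 TPM in 2 libraries, all of clnor. The WOX13 gene Cla97C10G184840 was the second most abundant homeobox gene (in Arabidopsis, WOX13 acts in the replum, a tissue of the fruit wall). It read 427, 489 and 381 TPM at 10 DAP and 123, 162 and 148 TPM at 34 DAP in WT, and 375, 396 and 355 TPM and 437, 293 and 425 TPM in clnor. Both genotypes had their highest mean at 26 DAP, 466 ± 60.7 TPM in WT and 617 ± 101 TPM in clnor (SD, n = 3). The genotypes overlapped at 10 DAP and did not at 34 DAP, where the difference was 1.39 (SE 0.20, adjusted p = 1.41e-05). At 42 DAP it was 0.66 (SE 0.20, adjusted p = 0.0156), a call lost without replicate 3 of WT 42 DAP or replicate 2 of clnor 42 DAP (adjusted p from 0.071 to 0.107) and in a fit of the compared groups alone (0.0581).

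The WOX1 gene Cla97C06G123810 and the WOX4 gene Cla97C08G159740 were low genes higher in late than in young WT flesh. In Arabidopsis WOX1 acts in blade outgrowth and WOX4 maintains the cambium. Cla97C06G123810 read 0.26, 0.14 and 0.07 TPM at 10 DAP and 3.19, 4.29 and 1.93 TPM at 34 DAP in WT, and in clnor no library exceeded 0.75 TPM at any age. The difference was -1.84 (SE 0.33, adjusted p = 0.000118) at 34 DAP and -1.89 (SE 0.33, adjusted p = 0.00011) at 42 DAP. At 26 DAP it was -1.17 (SE 0.33, adjusted p = 0.0167), lost without replicate 1 or 2 of WT 26 DAP or replicate 1 of clnor 26 DAP (adjusted p from 0.0597 to 0.0738). This gene passed the filter through WT.

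Cla97C08G159740 read 3.65, 4.99 and 0.85 TPM at 34 DAP and 1.86, 10.4 and 15.4 TPM at 42 DAP in WT, and was listed at 0 in all 6 clnor libraries of those ages. At 10 DAP the genotypes overlapped, at 0.64, 0.81 and 0.34 TPM in WT and 1.14, 0.24 and 1.84 TPM in clnor. The test on the log scale gave adjusted p = 0.00335 at 34 DAP and 4.68e-05 at 42 DAP, and no fold is given against groups listed at 0. Its rise in WT from 10 to 34 DAP (change in log2 1.23, SE 0.48, adjusted p = 0.0394) was lost without replicate 1, 2 or 3 of WT 10 DAP or replicate 1 or 2 of WT 34 DAP (adjusted p from 0.0566 to 0.185), and with a pseudocount of 0.1 (0.0521) or without the 5 libraries nearest to another group (0.0502) or in a fit of the compared groups alone (0.0528). The rise to 42 DAP was 2.36 (SE 0.48, adjusted p = 0.000327).

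The WOX3 gene Cla97C02G046470, whose Arabidopsis namesake acts at organ margins, had a single peak. WT read 6.19, 3.93 and 1.65 TPM at 26 DAP and no more than 1.24 TPM at any other age, and clnor read 0.36, 0 and 0.18 TPM at 26 DAP. All WT libraries of 26 DAP lay above the clnor ones (difference in log2 -1.96, SE 0.26, adjusted p = 2.33e-05), and the gene passed the filter through WT. WOX8-like Cla97C11G224920, whose Arabidopsis namesake patterns the embryo, was called at 42 DAP alone. It read 31.7, 15.8 and 24.4 TPM in WT and 13.6, 6.93 and 7.34 TPM in clnor, without overlap (difference in log2 -1.28, SE 0.31, adjusted p = 0.00274).

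Of 7 zinc finger homeodomain genes, 0 were called between genotypes at 10, 18 and 42 DAP, where the shares of all genes tested were 0.473, 2.35 and 32.6%. At 26 DAP 2 were called, or 28.6%, beside 15.5% of all genes, and at 34 DAP 1, or 14.3%, beside 39.4%. The abundant member, Cla97C09G179650, peaked in WT at 26 DAP with 291, 339 and 179 TPM, where clnor read 65.4, 48 and 114 TPM. The groups did not overlap (difference in log2 -1.86, SE 0.53, adjusted p = 0.0182). The call was lost without replicate 1 or 2 of WT 26 DAP or replicate 1 or 2 of clnor 26 DAP (adjusted p from 0.0597 to 0.085). At the other 4 ages its differences were not called. Cla97C04G079210 was higher in clnor at 26 DAP, at 22.7, 14 and 21.9 TPM against 9.47, 3.31 and 6.32 TPM in WT (difference in log2 1.54, SE 0.48, adjusted p = 0.0302). Cla97C01G017860 was higher in clnor at 34 DAP, at 2.17, 5.41 and 0.8 TPM against 0.1, 0.35 and 0.19 TPM in WT (difference in log2 1.46, SE 0.39, adjusted p = 0.00479). Whether the calls of Cla97C04G079210 and Cla97C01G017860 hold without single libraries was not checked. With age, 4 of the 7 (57.1%) fell in WT from 10 to 34 DAP and none rose, beside 29.4% falls and 19.1% rises of all genes. Among those that fell was Cla97C09G179640 (change in log2 -1.80, SE 0.32, adjusted p = 6.94e-05). The last gene bears the ID next to that of Cla97C09G179650, which changed by 0.10 over the same ages and was not called.

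The 16 other homeobox genes include relatives of regulators of chromatin and flowering time. Between genotypes 6 were called at 34 DAP and 2 at 42 DAP, or 37.5 and 12.5%, beside 39.4 and 32.6% of all genes, with log2 differences at 34 DAP from -0.76 to 1.14. The homeobox gene Cla97C02G048990 was lower in clnor at both ages. It read 74.2, 81 and 91.2 TPM in WT and 41.1, 40.1 and 45.6 TPM in clnor at 42 DAP, without overlap (difference in log2 -0.94, SE 0.14, adjusted p = 1.91e-05), and from 10 DAP it had risen in WT by 0.82 (SE 0.14, adjusted p = 4.09e-05). Higher in clnor at 34 DAP were Cla97C09G173260, which pairs a homeodomain with a DDT domain, known from partners of chromatin remodellers (difference in log2 1.14, SE 0.28, adjusted p = 0.00215), and the nodulin homeobox-like Cla97C03G052670 (difference in log2 0.71, SE 0.18, adjusted p = 0.0026). Calls of Cla97C02G048990, Cla97C09G173260 and Cla97C03G052670 were not checked without single libraries. The 3 SAWADEE homeodomain genes, whose Arabidopsis namesake takes part in RNA-directed DNA methylation, and the luminidependens-like Cla97C09G168770, named for an Arabidopsis flowering-time gene, were called between genotypes at no age. Their differences lay between -0.39 and 0.33 over all 5 ages.

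**Figure D4:**
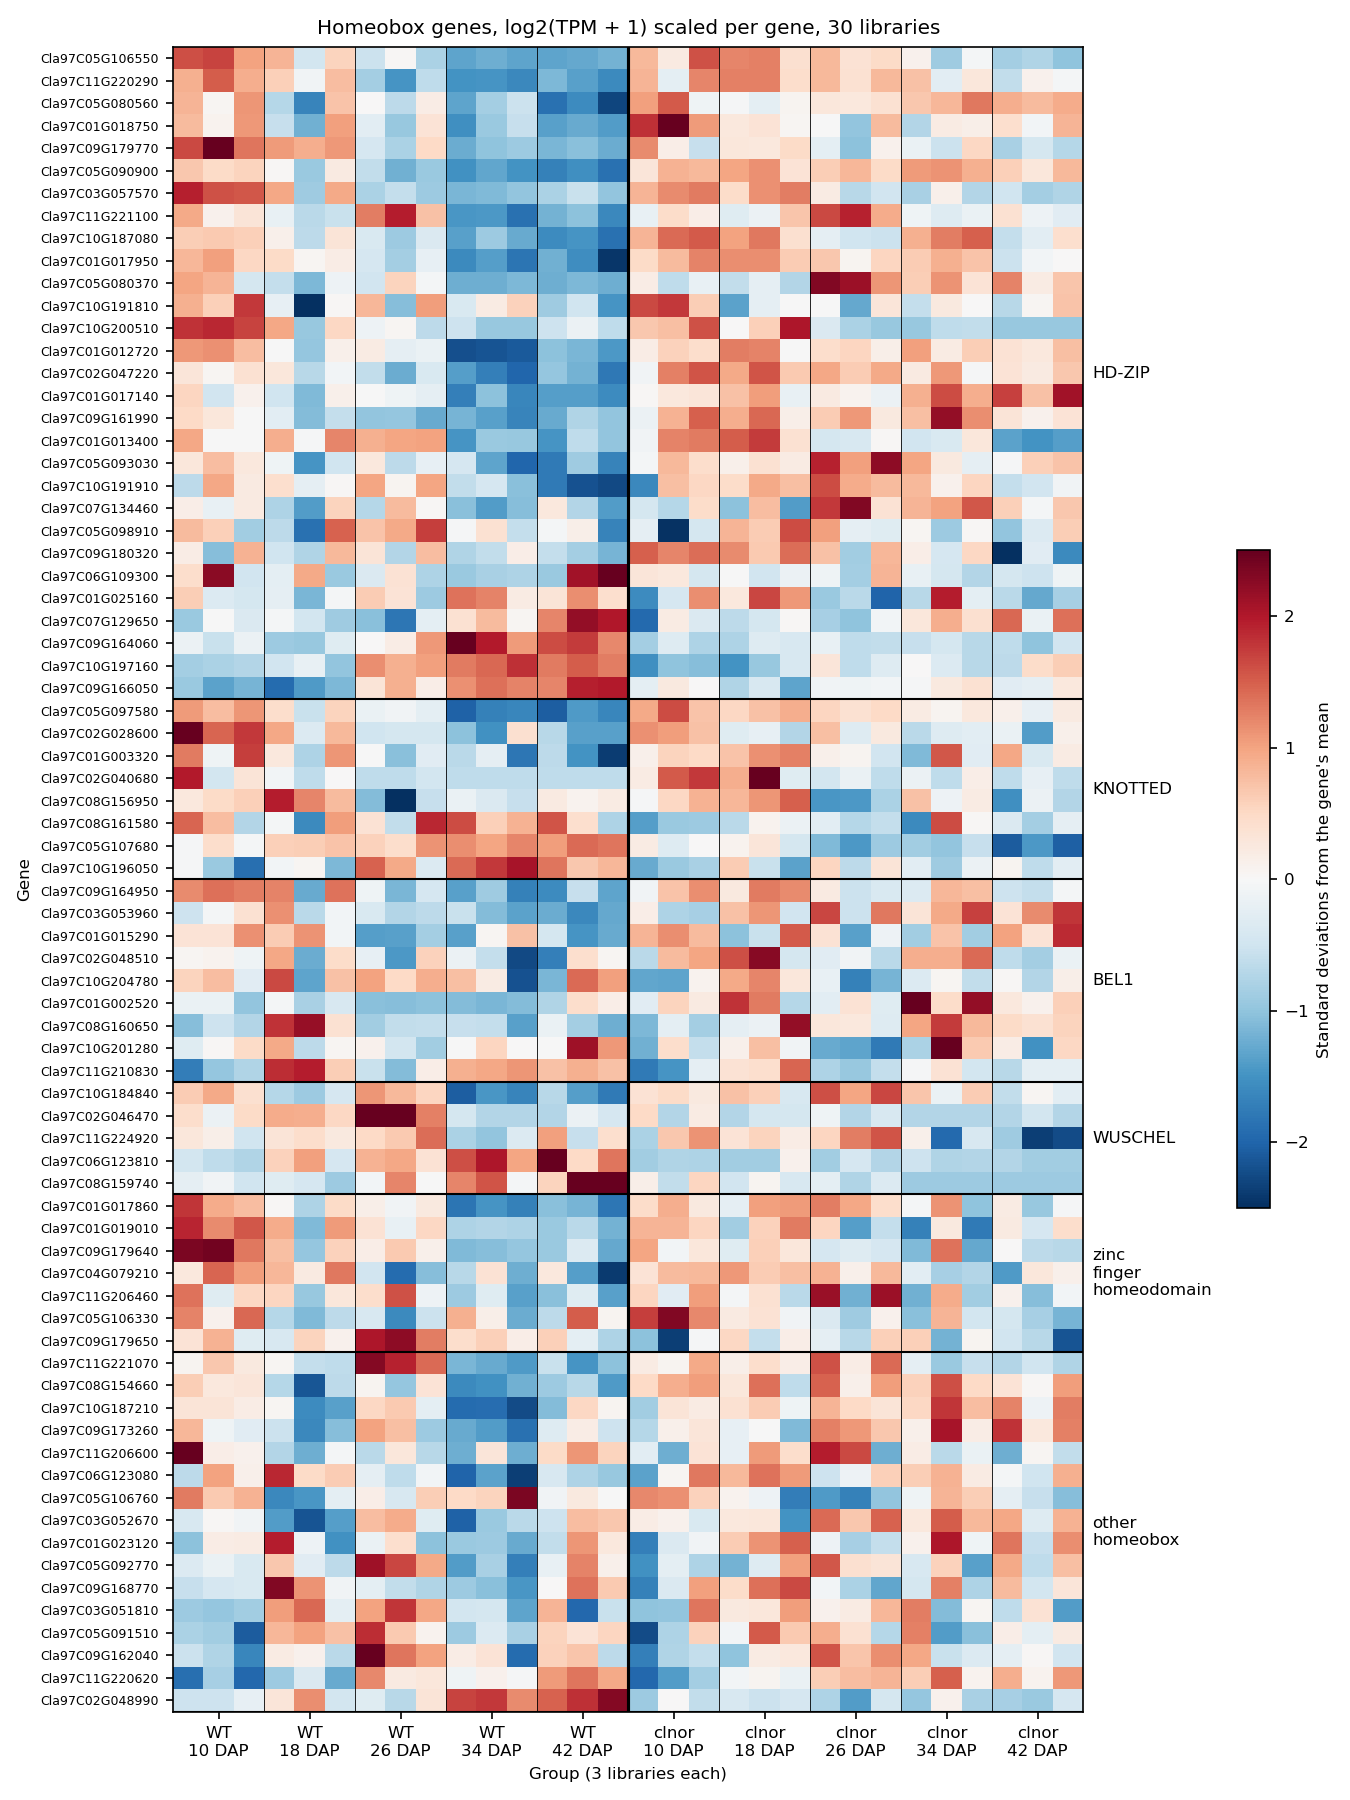
The 74 tested homeobox genes (rows, by class and then by their change in WT) in 30 libraries (columns, by genotype and age), coloured by log2(TPM + 1) scaled per gene, in standard deviations from the gene's mean. The WT columns of 34 and 42 DAP are mostly blue in the HD-ZIP block, and the clnor columns are not. In WT 18 of its 29 genes were called lower at 34 than at 10 DAP (62.1%, beside 29.4% of all genes).

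Change with age was compared within each genotype. The libraries of 34 and 42 DAP enter these contrasts and the comparisons of genotypes at those ages alike, so values from both are set side by side only. In WT, 43 of 74 homeobox genes were called between 10 and 34 DAP, 10 higher and 33 lower, beside 48.5% of all genes tested. Falls took 44.6% of the homeobox genes and 29.4% of all genes, and rises took 13.5 and 19.1%. The median change of the 74 genes was -0.66 and that of all genes -0.13. Between 10 and 42 DAP in WT, 45 were called, 12 higher and 33 lower, beside 50.9% of all genes (26.7% higher and 24.2% lower), with medians of -0.49 and 0.04. Quantile normalization moved the median of all genes from 10 to 34 DAP in WT to 0.08 and gave 14 rises and 25 falls, or 18.9 and 33.8% of the homeobox genes, beside 27 and 21.2% of all genes in that fit. Upper-quartile scaling moved that from 10 to 42 DAP to -0.13 and gave 11 rises and 35 falls, or 14.9 and 47.3%, beside 20 and 30.5% of all genes.

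In clnor, 16 homeobox genes were called between 10 and 34 DAP, 6 higher and 10 lower, beside 24.2% of all genes (13.2% higher and 11% lower), and 22 between 10 and 42 DAP, 5 higher and 17 lower, beside 39% of all genes (21.5% higher and 17.5% lower). The split at 34 DAP depended on the scaling, with 3 rises and 11 falls after upper-quartile scaling and 10 of each after quantile normalization, which gave 8 rises and 16 falls at 42 DAP. All genes split at 34 DAP into 10.7% rises and 13.8% falls after upper-quartile scaling and 14.4 and 11.1% after quantile normalization, which gave 20.9 and 18.7% at 42 DAP. Without the 5 libraries that lay nearer to another group, only replicate 2 is left in clnor 10 DAP, so no count is given for that fit. Leaving out clnor 10 DAP replicate 2 or clnor 34 DAP replicate 2 alone gave 10 calls between 10 and 34 DAP. In either case 3 were higher and 7 lower, or 13.5% in all, beside 19.4 and 19.7% of all genes.

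WT and clnor share no library in these contrasts. The 33 falls in WT and the 10 in clnor from 10 to 34 DAP shared 8 genes, which is 24.2% of the WT list and 80% of the clnor list. The falls of all genes tested shared 25.4 and 68% of their lists. The 10 rises in WT and the 6 in clnor shared 3, or 30 and 50%, beside 33.4 and 48.2% for all genes. From 10 to 42 DAP the 33 falls in WT and the 17 in clnor shared 10, or 30.3 and 58.8%, beside 44.9 and 62.1% for all genes. In that interval Cla97C01G017140 and BEL1-like 8 Cla97C03G053960 fell in WT and rose in clnor, the reverse of Cla97C05G107680. For Cla97C03G053960 the fall in WT, -1.09 (SE 0.45, adjusted p = 0.0456), was lost without replicate 2 or 3 of WT 10 DAP or replicate 1, 2 or 3 of WT 42 DAP (adjusted p from 0.068 to 0.147), and with no filter on low values (0.053) or after quantile normalization (0.349). Its rise in clnor was 1.31 (SE 0.45, adjusted p = 0.023). That call was lost without replicate 2 or 3 of clnor 10 DAP or replicate 2 or 3 of clnor 42 DAP (adjusted p from 0.0521 to 0.116). It was also lost in a fit of the compared groups alone (adjusted p = 0.0509). Without the 5 libraries nearest to another group, which leaves only replicate 2 in clnor 10 DAP, the rise was 1.55.

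**Figure D5:**
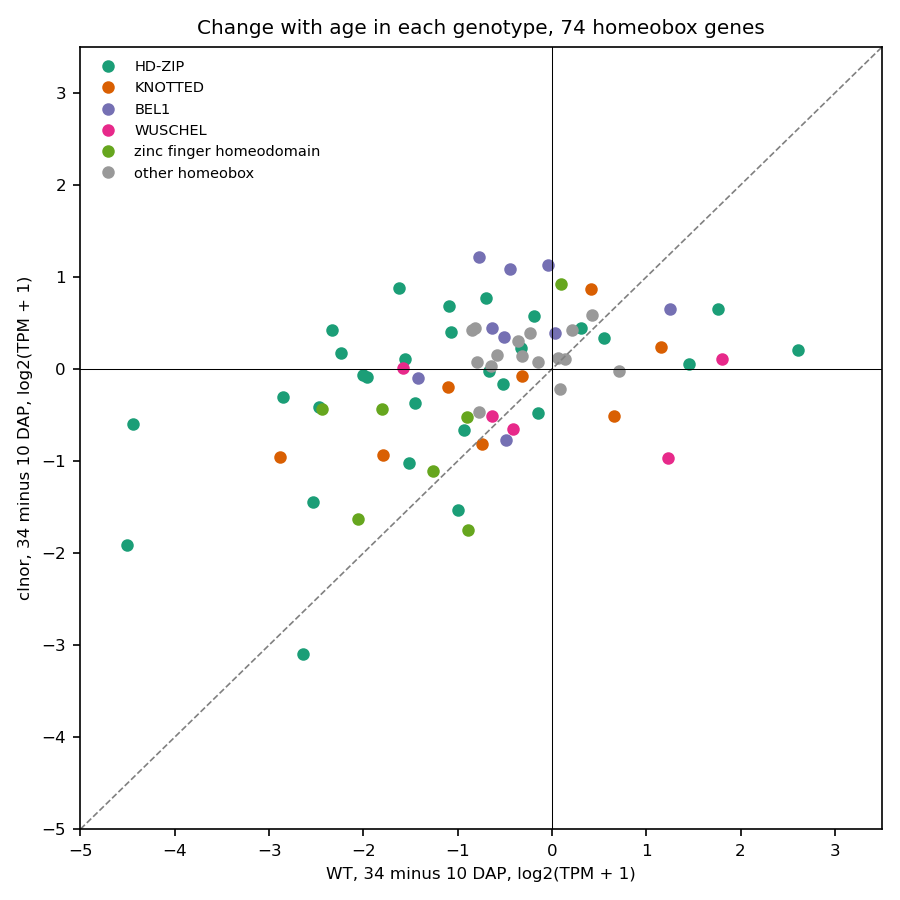
Log2 change from 10 to 34 DAP in WT (x axis) against that in clnor (y axis) for the 74 tested homeobox genes, coloured by class, both in log2(TPM + 1) units, with a dashed line where both are equal. Most genes left of 0 lie above the dashed line, as does Cla97C05G106550, the leftmost point at -4.51 in WT and -1.92 in clnor.

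By mean level, 30 of the 74 genes had their highest WT group at 10 DAP, 8 at 18, 20 at 26, 6 at 34 and 10 at 42 DAP. In clnor the numbers were 18, 24, 16, 10 and 6. These counts describe group means only.

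Whether the genotype difference itself changed with age was tested by an F test of its change from 10 DAP to the 4 later ages. It was called in 25 of 74 homeobox genes, or 33.8%, beside 23.1% of all genes tested: 15 HD-ZIP, 2 KNOTTED, 2 BEL1, 4 WUSCHEL and 2 other genes, and 0 zinc finger homeodomain genes. The WUSCHEL genes Cla97C02G046470 and Cla97C06G123810, which passed the filter through WT, were not called with a pseudocount of 0.1 (adjusted p = 0.0627 and 0.0721). The call of Cla97C06G123810 was also lost without replicate 2 or 3 of WT 10 DAP (adjusted p = 0.0509 and 0.0557). The BEL1 pair, Cla97C03G053960 and Cla97C08G160650, was not called after quantile normalization (adjusted p = 0.0966 and 0.129). Both calls were also lost on leaving out single libraries. For Cla97C03G053960 these were replicate 2 or 3 of WT 10 DAP or replicate 2 of WT 42 DAP or replicate 2 or 3 of clnor 10 DAP or replicate 3 of clnor 42 DAP (adjusted p from 0.0526 to 0.0654), and for Cla97C08G160650 replicate 1 or 2 of WT 18 DAP or replicate 3 of WT 34 DAP or replicate 1 or 2 of clnor 18 DAP or replicate 2 of clnor 34 DAP (adjusted p from 0.0687 to 0.0766). The HD-ZIP gene Cla97C10G197160 was not called with a pseudocount of 0.1 (adjusted p = 0.055) or 0.5 (0.0521), or with no filter (0.0583). Rescaling to a common sum (0.0509) and the replicate number as a block (0.0636) also lost it. So did leaving out many single libraries (0.0511 to 0.108), and some of these lost HD-ZIP Cla97C09G161990 (0.0532 to 0.0774). The 6 genes with the smallest p were Cla97C05G107680 (adjusted p = 8.55e-06), Cla97C09G166050 (1.09e-05), Cla97C01G012720 (0.000105), Cla97C05G090900 (0.000178), Cla97C01G017140 (0.000228) and Cla97C05G097580 (0.000748). The first 2 gained a deficit in clnor with age and the other 4 a surplus. Averaged over the 5 ages, 39 genes differed between genotypes, 27 higher and 12 lower in clnor, beside 48.2% of all genes (31.8% higher and 16.4% lower), and 21 and 20 after quantile normalization, beside 22.2 and 24.6% of all genes.

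Genes around the homeobox proteins were taken from lists of search words, with members excluded. In the list of partners and organ polarity regulators, 33 of 61 genes were tested. At 34 DAP 9 were higher and 7 lower in clnor, beside 27.4 and 12.1% of all genes. The median difference was 0.16, beside 0.20 for all genes. LITTLE ZIPPER 1-like Cla97C05G082620 stood out among those higher. In Arabidopsis, little zipper proteins dimerise with class III HD-ZIP proteins and keep them off DNA. Its mean was 31.2 TPM in WT and 172 TPM in clnor at 34 DAP, a log2 difference of 2.49 (adjusted p = 7.57e-06). Growth-regulating factors, transcription factors of growing organs, went both ways: Cla97C10G200470 and Cla97C10G200480 were lower in clnor at 34 DAP, with log2 differences of -2.64 (adjusted p = 3.88e-05) and -2.47 (adjusted p = 4.25e-05), and Cla97C02G034420 was higher by 1.65 (adjusted p = 6.86e-06). LOB domain 39-like Cla97C05G102230 had means of 386 TPM in WT and 73.6 TPM in clnor (difference in log2 -2.38, adjusted p = 1.06e-08).

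Of 18 CLAVATA and CLE genes, which signal to WUSCHEL genes, 12 were tested, with a median difference of 0.10 at 34 DAP. At that age 1 was called, beside 39.4% of all genes. This was CLE12-like Cla97C01G006000, with a mean of 82.7 TPM in WT and listed at 0 in all clnor libraries of that age (adjusted p = 0.000263). Of 48 genes of gibberellin and cytokinin metabolism, 25 were tested. At 34 DAP 7 were higher and 3 lower in clnor, beside 27.4 and 12.1% of all genes, with a median difference of 0.27. Both genes named here from that list are among the 3 lower ones, and the 7 higher ones are not named. Gibberellin 20-oxidase Cla97C05G089570, from an enzyme family that KNOX proteins repress in other plants, had means of 2105 TPM in WT and 11.8 TPM in clnor at 34 DAP (difference in log2 -7.94, adjusted p = 4.34e-07). The adenylate isopentenyltransferase Cla97C07G128470, a cytokinin synthesis gene, had means of 12.6 and 0.197 TPM (difference in log2 -3.41, adjusted p = 2.01e-06).

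Markers of flesh and of other tissues also differed by age and genotype. At 34 DAP the shares of all genes tested were 27.4% higher and 12.1% lower in clnor, to be set beside each count below. All 5 flesh markers matched were tested, and none was listed at 0 in all 3 libraries of a genotype at 34 DAP. Their sums were 2894 to 3747 TPM in WT and 768 to 1046 TPM in clnor at 34 DAP, with 2 higher and 2 lower in clnor. Their median log2 difference was 0.34, beside 0.20 for all genes, so the sum and the median differed in direction. Alkaline alpha-galactosidase Cla97C04G070460, which held most of the sum, was lower in clnor, with means of 2878 TPM in WT and 784 TPM in clnor, as was phytoene synthase Cla97C01G008760, with 281 and 28.5 TPM. Higher in clnor were 2 further phytoene synthase genes, Cla97C07G137500, with 9.46 and 22.2 TPM, and Cla97C02G050140, with 0.0533 and 0.927 TPM. Phloem markers were 10 higher and 0 lower in clnor at 34 DAP, of 29 tested and 39 matched, with a median difference of 0.54. Their summed level was 280 to 393 TPM in WT and 435 to 1398 TPM in clnor at 34 DAP, with 10 and 9 markers listed at 0 in all 3 libraries. In WT at 10 DAP the phloem sum was 883 to 1476 TPM. From 10 to 34 DAP in WT 2 phloem markers rose and 18 fell, beside 19.1% rises and 29.4% falls of all genes. In clnor 2 rose and 11 fell over the same ages, beside 13.2% rises and 11% falls of all genes. Epidermis and cuticle markers, 10 tested of 19, were 4 higher and 2 lower (median difference 0.52), with sums of 89.3 to 109.5 TPM in WT and 69.2 to 164 TPM in clnor and 5 and 4 markers at 0. Xylem markers, 7 tested of 18, were 1 higher and 0 lower (median difference 0.17), with sums of 16.02 to 17.79 and 25.17 to 29.03 TPM and 9 markers at 0 in each. Seed markers, 44 tested of 82, were 4 higher and 8 lower in clnor at 34 DAP, with sums of 5764 to 7132 TPM in WT and 2955 to 3548 TPM in clnor and 34 markers at 0 in each. The median log2 difference of the seed markers was 0.07. Among those lower, 11S globulin Cla97C05G092030, a seed storage protein, had means of 1116 TPM in WT and 4.36 TPM in clnor. Among those higher, the late embryogenesis abundant gene Cla97C02G033670 had 27.2 and 289 TPM. The part of these tissues in the homeobox differences was not tested.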

How the data were processed

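Flesh RNA of 30 libraries was analysed, 3 in each of 10 groups of genotype and age taken from the labels. The authors deposited 1 table of TPM values per gene and library, with a description per gene; that the unit is TPM rests on the table and its column sums. TopHat2, HISAT2, StringTie and Cufflinks were used, per the submitters' processing notes; their versions, their roles and the build of the genome were not given in the sources used here. How many reads lie behind the values is unknown. No gene sequence was used here.

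Homeobox genes were found by search words in the descriptions, and classes by further words; the words for HD-ZIP were widened after the descriptions were read. From the list words, matches to phosphatase subunits, phosphoprotein PP28, leguminosin, hydroxyproline-rich proteins and inhibitors were removed as accidental. The members, classes, lists and tests were chosen with earlier results of these data known. Named genes follow a rule: the 4 smallest p for clnor against WT at each age, the 6 smallest of the F test, the 5 largest rises and 5 largest falls in WT from 10 to 34 DAP, the 5 highest means, and every KNOTTED, BEL1 and WUSCHEL gene, 39 in all. Cla97C02G047220, Cla97C05G093030, Cla97C04G079210, Cla97C01G017860, Cla97C02G048990, Cla97C09G173260, Cla97C03G052670, Cla97C09G168770 and the genes named from related lists and markers were chosen after their values were seen. Calls of single genes were checked under the alternatives only for the 39 genes named by the rule.

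Values were fitted as log2(TPM + 1) with limma 3.58.1 (lmFit, contrasts.fit, eBayes with trend and robust) in R 4.3.3, with statmod 1.5.0, in 1 model of 10 groups with 20 residual degrees of freedom. The 16503 genes that reached 1 TPM in 3 or more libraries entered. Tests were two-sided and adjusted by Benjamini and Hochberg over all genes tested within each of 11 contrasts. How reads shared by near-identical paralogs were assigned is unknown, which makes the level of a single gene in such a family uncertain. The fit was tested on simulated data. Alternatives were pseudocounts of 0.1 and 0.5, no filter, a filter at 5 TPM, common-sum, upper-quartile and quantile scaling, the compared groups alone, a replicate block, and leaving out libraries.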

Additional observations from a re-analysis of the deposited data

Results flagged for a closer look

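Among the results on homeobox genes, a change of the genotype difference with age marked 25 of 74 tested genes, or 33.8%, beside 23.1% of all genes tested. The 6 with the smallest adjusted p in limma's F test were Cla97C05G107680 (8.55e-06), Cla97C09G166050 (1.09e-05), Cla97C01G012720 (0.000105), Cla97C05G090900 (0.000178), Cla97C01G017140 (0.000228) and Cla97C05G097580 (0.000748). In Cla97C09G166050 the difference changed sign, from 1.25 at 10 DAP to -1.95 at 42 DAP, and in Cla97C05G107680 it went from -0.10 to -2.05. In the other 4 it was between -0.30 and 0.12 at 10 DAP and between 0.82 and 2.63 at 42 DAP.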

How the results depend on the processing

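Of 183 calls of named homeobox genes, 137 held under every alternative in which the gene could be tested, and none turned sign. The counts of called genes at 26, 34 and 42 DAP, averaged over ages, for the change with age of the genotype difference, for both WT contrasts and for clnor 42 against 10 DAP moved by less than 1.5 times under every alternative that kept all libraries. For clnor against WT at 10 DAP the count of 1 became 3 with no filter, 2 after quantile normalization and 0 in a fit of the compared groups alone. Of all genes, 0.982% were called after quantile normalization and 0% in the fit of the compared groups alone. At 18 DAP the count of 2 became 4 after quantile normalization, 25 without the 5 libraries nearest to another group, an alternative chosen after seeing the data, and 0 in a fit of the compared groups alone. Of all genes, 2.35, 25.5 and 0% were called in these fits, in the same order. No count is given for clnor 34 against 10 DAP without the 5 libraries, which leaves only replicate 2 in clnor 10 DAP. In a fit of the compared groups alone its count of 16 became 4, or from 21.6 to 5.41% of the homeobox genes. The share of all genes went from 24.2 to 8.25%. The cause of these shifts was not tested. Leaving out each library in turn gave 0 to 2 genes at 10 DAP, 0 to 16 at 18 DAP, 9 to 17 at 26 DAP, 31 to 39 at 34 DAP and 25 to 32 at 42 DAP. It gave 38 to 41 averaged over ages, 21 to 29 for the change with age, 39 to 43 and 41 to 46 for WT at 34 and 42 against 10 DAP, and 10 to 19 and 17 to 23 for clnor. Shares of all genes over the same fits were 0.0788 to 1.87% at 10 DAP and 0.0545 to 13.3% at 18 DAP. They were 9.02 to 17.3% at 26, 32.6 to 41.4% at 34 and 24.6 to 34.6% at 42 DAP. Averaged over ages they were 45.1 to 49.6%, and for the change with age 18.8 to 27.3%. For WT they were 40.6 to 50% and 43.3 to 52.7%, and for clnor 19.3 to 25.5% and 30.3 to 40.3%. With 1 library of a group left out the other 2 carry it, and the spread is pooled over groups.

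Same-numbered libraries did not deviate together: of 27 pairs, 6 had a correlation over 0.1, with r from -0.407 to 0.247. With the replicate number as a block the counts were 1, 2, 14, 36 and 29 from 10 to 42 DAP, 39 averaged over ages, 24 for the change with age, 42 and 44 in WT at 34 and 42 against 10 DAP, and 14 and 21 in clnor. Shares of all genes with that block were 0.473, 1.61, 14.6, 38.5 and 31.6% from 10 to 42 DAP. They were 47.4% averaged over ages, 21.2% for the change with age, 47.7 and 50.2% in WT and 23 and 38% in clnor. The unknown depth limits what can be said of genes below 5 TPM, 26 of the 74.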
